A study of Mus musculus with 18 samples.

Results

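The 38 genes described here encode the contractile filaments, the Z disc and elastic scaffold, the calcium-handling machinery and the energy and oxygen supply of skeletal muscle. They were taken by gene name, and all 38 were among the 26538 genes of the deposited table. Levels are given in FPKM, fragments scaled for gene length and library size, a scale on which genes of different length can be compared.

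A striated muscle fibre shortens when thin filaments of skeletal actin slide along thick filaments of myosin. Calcium released from the sarcoplasmic reticulum binds troponin C, and the troponin and tropomyosin strand then uncovers the sites on actin to which myosin binds. Creatine kinase, glycogen phosphorylase, muscle enolase and myoglobin keep the fibre supplied with ATP and oxygen. Fast and slow fibres use different genes of the same families, and most of these genes are at or near 0 in other cell types.

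The samples were tumours left untreated in mice in which another tumour had been ablated. Ablation was by freezing (cryoablation), by radiofrequency heating, or by cryo-thermal therapy, which joins freezing with heating, and each was given alone or with anti-PD-1, an antibody against the T cell checkpoint receptor PD-1. The design asks how tumours away from the ablated site differ between the ablation methods and with the antibody. This made 6 groups of 3 tumours, 18 in all, and every group had an ablation: mice with no ablation were not analysed here. The sources used here name neither the tumour line, the mouse strain, the sampling day nor whether the libraries kept strand. Nor do they state that a group's 3 tumours were taken from different mice, and its spread, on which every p-value rests, may be technical.

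Promoters of the 3 members with the highest mean level are shown, chosen by level alone. Of these, Acta1 and Mylpf followed the order of tumours that most members had and Eno3 did not. RefSeq starts on GRCm38.p6 were found for 28 of the 38 members, 33 starts in all, and the sequences are the 250 bases before the start, 5′ to 3′ on the strand of the gene. Capitals mark E-boxes (CANNTG, the same on both strands), to which MyoD family factors bind, and, in Acta1, a CArG box, to which serum response factor binds.
Eno3 (chr11:70656926-70657175, plus strand): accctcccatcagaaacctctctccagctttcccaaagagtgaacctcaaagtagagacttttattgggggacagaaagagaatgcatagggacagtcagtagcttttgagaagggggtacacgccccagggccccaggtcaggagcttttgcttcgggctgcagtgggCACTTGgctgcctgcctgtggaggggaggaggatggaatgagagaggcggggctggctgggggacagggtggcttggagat
Acta1 (chr8:123894776-123895025, minus strand): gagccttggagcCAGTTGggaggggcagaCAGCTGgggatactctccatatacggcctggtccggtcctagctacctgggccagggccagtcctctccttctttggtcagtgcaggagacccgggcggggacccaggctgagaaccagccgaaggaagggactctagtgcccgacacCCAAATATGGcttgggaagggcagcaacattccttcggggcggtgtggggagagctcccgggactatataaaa
Mylpf (chr7:127211358-127211607, plus strand): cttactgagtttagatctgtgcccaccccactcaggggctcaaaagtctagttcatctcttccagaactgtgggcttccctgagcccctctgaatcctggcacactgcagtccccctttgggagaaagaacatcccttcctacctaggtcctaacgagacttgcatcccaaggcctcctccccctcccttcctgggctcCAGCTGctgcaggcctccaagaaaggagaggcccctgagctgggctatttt
Acta1, the skeletal muscle actin gene, held 2 E-boxes and 1 CArG box in this window, and Eno3 and Mylpf held 1 E-box each. Of the 33 member starts, 26 (78.8%) held an E-box, against 66.2% of all 32851 RefSeq starts. A MEF2 site, searched on both strands, stood in 6 member starts (18.2%, against 2.92% of all starts), and a CArG box in 4 (12.1%, against 1.47%). Some members had more than 1 start, and the starts with a motif belonged to 23 members for the E-box, 6 for the MEF2 site and 3 for the CArG box. These are matches of letters in a window and were not tested as binding sites.

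Each tumour had between 34584211 and 35908377 fragments in genes, so depth differed little between tumours. Members were low: their mean over the 18 tumours ran from 0.0408 FPKM for Ttn to 14.9 FPKM for Eno3, and 36 of 38 had a mean of at least 10 fragments per tumour, all but Ampd1 and Sln. The summed level of the 38 genes was 38.5 to 51.3 FPKM after cryoablation, 24.3 to 62.1 FPKM after radiofrequency and 45.6 to 134 FPKM after cryo-thermal therapy. With anti-PD-1 it was 98.2 to 119 FPKM, 82.2 to 163 FPKM and 45 to 85.9 FPKM in the same order. Some tumours stood apart within their group: cryo-thermal replicate 2 (134 FPKM, the other two 47.7 and 45.6) was high, and radiofrequency replicates 1 and 3 (24.3 and 25.9 FPKM) lay far below replicate 2 (62.1 FPKM). With anti-PD-1, cryo-thermal replicate 1 (85.9 FPKM) lay above replicates 2 and 3 (55 and 45 FPKM). Radiofrequency plus anti-PD-1 replicate 2 (82.2 FPKM) lay below replicates 1 and 3 (163 and 156 FPKM). In bulk tissue, fewer muscle fibres and less of their RNA per fibre cannot be told apart.

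**Figure D1:**
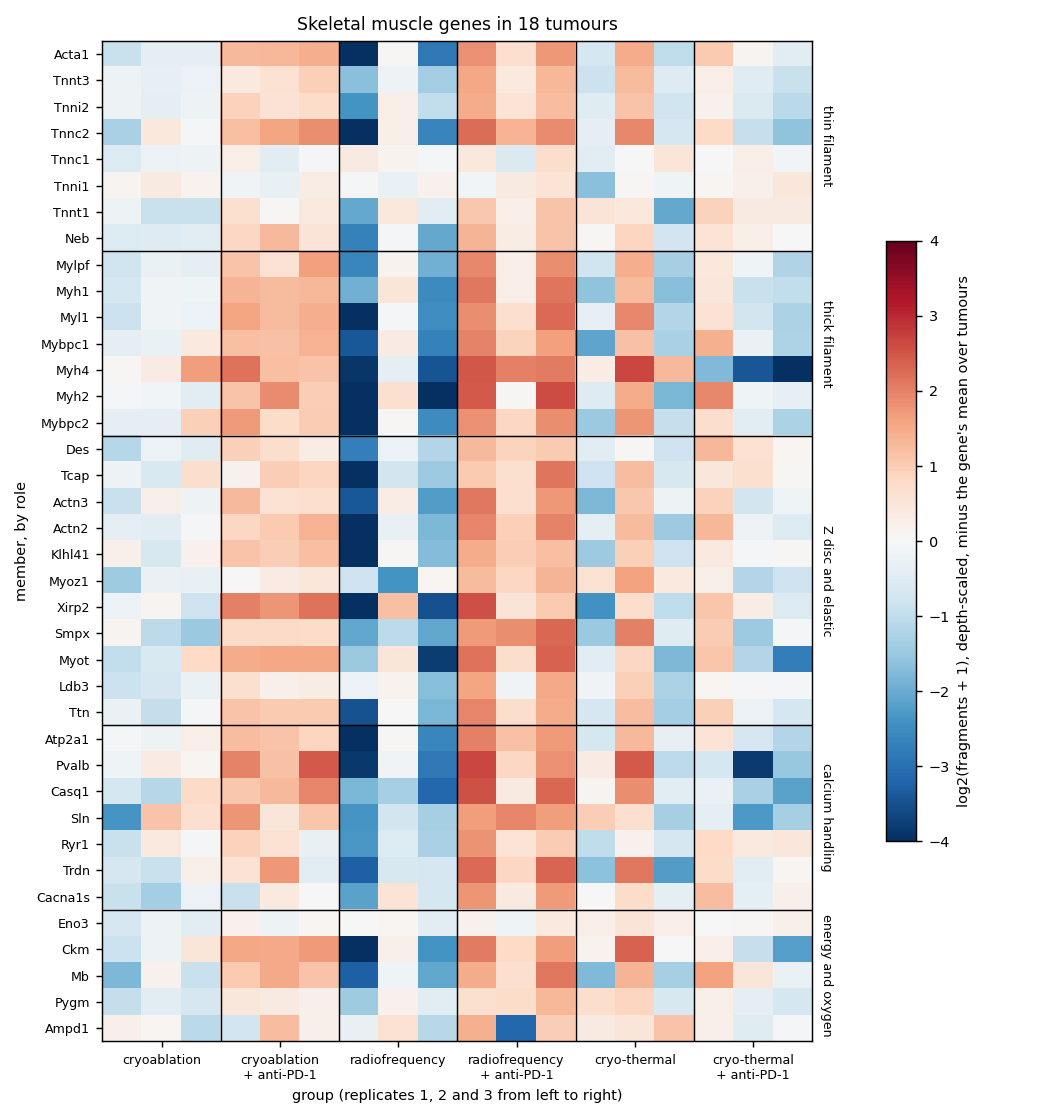
Depth-scaled log2(fragments + 1) of the 38 members in each of the 18 tumours, minus the mean of the gene over tumours, with rows grouped by role and columns by group; colours end at 4 in either direction. Most rows are red in both anti-PD-1 groups of cryoablation and radiofrequency and in cryo-thermal replicate 2, and blue in radiofrequency replicates 1 and 3, while Eno3, Tnnc1 and Tnni1 stay near white.

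The tumours ordered the members much alike. Radiofrequency replicate 1 was the lowest tumour for 27 of 38 members, ties included, and listed 7 of them at 0. Radiofrequency plus anti-PD-1 replicates 1 and 3 were the highest tumours for 18 and 14 members, and cryo-thermal replicate 2 for 4. Eno3, Tnnc1 and Tnni1 had the smallest ratios of highest to lowest tumour.

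Thin filament genes are taken first, led by Acta1, the member with the highest mean level after Eno3. Acta1 was at 4.84, 7.13 and 6.99 FPKM after cryoablation and at 22.2, 22.6 and 24.8 FPKM with anti-PD-1 added. After radiofrequency it was at 0.429, 9.36 and 1.23 FPKM alone and at 32, 14.5 and 30.4 FPKM with anti-PD-1. After cryo-thermal therapy it was at 5.62, 25.3 and 4.51 FPKM alone and at 18.8, 9.76 and 6.77 FPKM with anti-PD-1. The anti-PD-1 tumours of the first 2 pairs thus lay wholly above their partners, whereas the cryo-thermal pair overlapped through replicate 2.

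Fast troponin genes, which confer calcium sensitivity on the thin filament of fast fibres, followed the same order of tumours. Troponin T Tnnt3 stood at 4.58, 4.18 and 4.43 FPKM after cryoablation, 6.88, 7.94 and 10.1 FPKM with anti-PD-1, 1.64, 4.59 and 1.99 FPKM after radiofrequency and 15.3, 6.94 and 13.2 FPKM with anti-PD-1. In the cryo-thermal groups Tnnt3 was at 2.85, 12.7 and 3.66 FPKM alone and at 6.29, 3.75 and 2.83 FPKM with anti-PD-1. Both earlier pairs were separated, and the cryo-thermal pair was not. Troponin I Tnni2 was at 4.4, 3.92 and 4.45 FPKM after cryoablation and 9.64, 7.56 and 8.53 FPKM with anti-PD-1, and at 0.932, 6.06 and 2.57 FPKM after radiofrequency and 14.1, 7.47 and 12 FPKM with anti-PD-1. Its cryo-thermal tumours held 3.65, 11.3 and 2.9 FPKM alone and 5.71, 3.36 and 2.38 FPKM with anti-PD-1, again with overlap. Troponin C Tnnc2, the calcium-binding subunit, ran from 0 to 10.9 FPKM. Tnnc2 tumours were at 0.904, 3.1 and 2.25 FPKM after cryoablation and 5.34, 6.87 and 8.46 FPKM with anti-PD-1. Radiofrequency gave 0, 2.71 and 0.34 FPKM alone and 10.9, 6.06 and 8.58 FPKM with anti-PD-1, and cryo-thermal therapy 1.79, 8.8 and 1.44 FPKM alone and 4.01, 1.19 and 0.725 FPKM with anti-PD-1. Groups separated in the cryoablation and radiofrequency pairs only.

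Of the slow troponin members, Tnnc1 and Tnni1 behaved otherwise. Tnnc1, the troponin C of slow and heart muscle, lay between 1.91 and 4.71 FPKM in all 18 tumours, and Tnni1, the slow troponin I, between 0.229 and 1.1 FPKM. Tnnt1, slow troponin T, was nearer to the fast members. It was at 0.0563 to 0.631 FPKM, lowest in radiofrequency replicate 1 and highest in radiofrequency plus anti-PD-1 replicate 3. Its cryoablation tumours, at 0.143 to 0.241 FPKM alone and 0.287 to 0.444 FPKM with anti-PD-1, did not overlap, and its other pairs did. Tnnc2 therefore ranged from 0 to 3.19 times the level of Tnnc1 from tumour to tumour. Neb, nebulin, which lines the thin filament, was at 0.0142 to 0.257 FPKM over 111 fragments a tumour on average.

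Thick filament genes gave the same picture for the fast light chain Mylpf, the regulatory light chain of fast myosin. Cryoablation gave 3.36, 4.79 and 4.48 FPKM, and cryoablation plus anti-PD-1 gave 12.9, 8.81 and 18 FPKM. Radiofrequency gave 0.931, 6.45 and 1.52 FPKM, and its combination gave 22.1, 6.98 and 21 FPKM. Cryo-thermal therapy gave 3.31, 15.8 and 2.3 FPKM, and its combination gave 7.85, 5.16 and 2.49 FPKM. Mylpf separated the first 2 pairs and overlapped in the third. Myl1, the essential light chain, ran from 0.0412 to 4.47 FPKM, Myh1 (myosin heavy chain IIx) from 0.169 to 4.43 FPKM, and Mybpc1 and Mybpc2, myosin-binding proteins C, from 0.0248 to 1.28 and from 0.00716 to 0.875 FPKM.

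Desmin, the intermediate filament protein of the Z disc, was the most separated member. Des was at 1.44, 2.66 and 2.25 FPKM after cryoablation and 6.07, 5.2 and 3.89 FPKM with anti-PD-1, and at 0.466, 2.67 and 1.39 FPKM after radiofrequency and 7.84, 5.83 and 6.54 FPKM with anti-PD-1. Cryo-thermal tumours held 2.34, 3.27 and 1.78 FPKM alone and 7.94, 4.78 and 3.36 FPKM with anti-PD-1. Des was the only member for which each of the 9 tumours given anti-PD-1 exceeded each of the 9 without it; the nearest values were 3.36 and 3.27 FPKM. Other Z disc and elastic genes were lower: Actn2 and Actn3, sarcomeric actinins, ran to 1.34 and 2.03 FPKM, the titin cap Tcap to 2.59 FPKM, and the scaffold genes Myoz1, Myot, Ldb3, Klhl41, Xirp2 and Smpx to 1.21 FPKM at most, with Ttn at 0.00243 to 0.113 FPKM.

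Calcium handling genes were led by Atp2a1, the sarcoplasmic reticulum calcium pump of fast fibres. It stood at 0.842, 0.756 and 1.05 FPKM after cryoablation and 2.06, 1.95 and 1.61 FPKM with anti-PD-1, and at 0.0302, 0.915 and 0.137 FPKM after radiofrequency and 3.59, 1.97 and 2.87 FPKM with anti-PD-1. Its cryo-thermal tumours held 0.531, 2.19 and 0.701 FPKM alone and 1.29, 0.551 and 0.385 FPKM with anti-PD-1. The cryo-thermal pair overlapped and the other pairs did not. Pvalb, the calcium buffer of fast fibres, reached 2.27 FPKM, and Casq1, calsequestrin, 1.45 FPKM. The channel genes Ryr1 and Cacna1s and the triadin gene Trdn stayed at 0.264 FPKM or below, and Sln at 0.941 FPKM or below.

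Among the energy and oxygen genes, Eno3 departed from this order. Eno3, beta-enolase of glycolysis, stood at 9.24, 12.8 and 10.8 FPKM after cryoablation, 16.3, 12.7 and 15.5 FPKM with anti-PD-1, 14.3, 15.5 and 10.6 FPKM after radiofrequency and 16.4, 12.9 and 19 FPKM with anti-PD-1. After cryo-thermal therapy it stood at 17.7, 21.1 and 17.6 FPKM alone and at 14.5, 15 and 16.7 FPKM with anti-PD-1. Eno3 was thus highest in cryo-thermal tumours without antibody, each of them above each cryoablation tumour. Its fragments implied a gene length 3.52 times its GENCODE vM21 exon length, against 0.442 to 1.70 for the other members, so reads of a longer or neighbouring model may be counted in it; their part was not tested. Ckm, muscle creatine kinase, ran from 0 to 7.01 FPKM, Mb, myoglobin, from 0.0622 to 3.42 FPKM, Pygm, muscle glycogen phosphorylase, from 0.19 to 1.32 FPKM, and Ampd1 stayed at 0.247 FPKM or below.

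**Figure D2:**
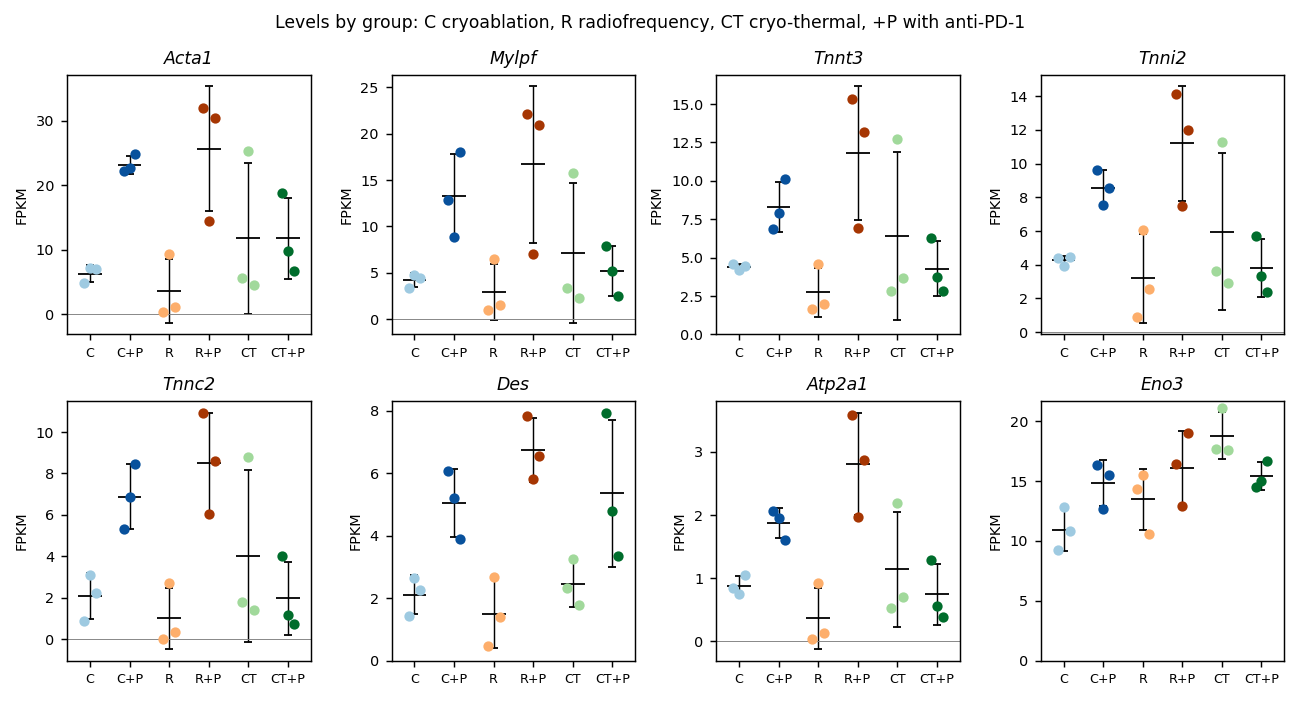
FPKM of 8 members in the 3 tumours of each group (points), with the mean and SD (bars). Des is higher in every anti-PD-1 tumour than in any tumour without it, Eno3 is highest after cryo-thermal therapy alone, and the other 6 genes are high in the cryoablation and radiofrequency combinations and in cryo-thermal replicate 2.

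Anti-PD-1 against none was tested with limma on log2(FPKM + 1), with p-values adjusted by Benjamini-Hochberg over the 12587 genes with a mean of at least 0.5 FPKM, of which 19 were members. Across the 3 ablations on average, 11 of these 19 members rose and none fell, with 10.0% of all tested genes called and 5.28% called higher. Des rose by 1.17 on this log2 scale (SE 0.17, limma adjusted p = 0.00407), Mb by 0.89 (SE 0.20, adjusted p = 0.015) and Acta1 by 1.66 (SE 0.37, adjusted p = 0.0152). Actn2 (0.46), Atp2a1 (0.63), Tcap (0.50), Actn3 (0.48), Myh1 (0.78), Myl1 (0.75), Tnnc2 (1.08) and Mylpf (1.19) also rose, with adjusted p-values from 0.0184 to 0.0439. Tnnt3 (0.76, adjusted p = 0.0553), Tnni2 (0.72, adjusted p = 0.0779) and Ckm (0.64, adjusted p = 0.113) missed the threshold, as did Pygm, Pvalb, Tnni1, Eno3 and Tnnc1. The median difference was 0.64 over the 19 members against -0.00 over all genes tested. With no minimum level, limma called 7 of 38 members higher, Neb, Ryr1 and Klhl41 among them, with 1.64% of all genes called higher. Low members were also tested on whole fragments recovered from the FPKM steps, in a limma-voom fit added after seeing the data. There, 17 of 36 members rose and none fell, with 8.13% of all genes called and 4.37% called higher, and Neb (1.39, adjusted p = 0.0132), Ryr1 (1.41, adjusted p = 0.0133), Klhl41 (1.71, adjusted p = 0.0147), Xirp2 (2.48, adjusted p = 0.0175), Ttn (1.65, adjusted p = 0.0212), Mybpc1 (1.87, adjusted p = 0.0264) and Smpx (1.83, adjusted p = 0.0342) were among them. Des, Acta1 and Mb were called in each of 18 limma fits that left out 1 tumour, and the number of members called ran from 3 without radiofrequency plus anti-PD-1 replicate 1 to 14 without cryo-thermal replicate 2. In 18 limma-voom fits that left out 1 tumour, the number ran from 9 to 25. Neb, Ryr1, Klhl41, Xirp2 and Ttn were called in each of these, and Mybpc1 and Smpx were not. With the replicate number as a block, 7 members were called, with 5.08% of all genes called higher.

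Hair follicle and keratinocyte markers were also higher with the antibody on average, but none was called and all 3 pairs overlapped. Their summed level was 55.8 to 158 FPKM after cryoablation and 149 to 280 FPKM with anti-PD-1, 50.5 to 232 FPKM after radiofrequency and 43.7 to 171 FPKM with anti-PD-1, and 49.1 to 124 FPKM after cryo-thermal therapy and 63 to 582 FPKM with anti-PD-1. For the mean difference all 15 of these markers were above 0 in limma-voom, with a median of 1.42, and 0 were called (1 at an unadjusted p under 0.05; 0 of 12 by limma). The 3 tumours highest in them were cryo-thermal plus anti-PD-1 replicate 1 (582 FPKM) and, in the cryoablation combination, replicate 1 (280 FPKM) and replicate 2 (277 FPKM). Without these 3 tumours, limma called 1 of 18 members higher, Des, with 1.02% of all genes called higher, and neither Acta1 nor Mb passed; limma-voom called 1 of 36, also Des. The member median was 0.61 in that limma fit, against 0.64 with all tumours. All 3 tumours had the antibody, and 1 tumour then stood for the cryoablation combination, assumed to vary like the other groups, so hair follicle content and the smaller number of tumours cannot be told apart in the lost calls.

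Within single ablations, limma called no member. Cryoablation with anti-PD-1 gave 0 of 19 members, with 4.31% of all genes called and 13 of the members at an unadjusted p under 0.05. The largest shifts by p were Des (0.96, limma adjusted p = 0.076), Myl1 (1.05, adjusted p = 0.114) and Mb (0.95, adjusted p = 0.117), none past the threshold, and limma-voom also gave 0. When only these 2 groups were fitted, limma called 11 members higher, with 1.84% of all genes called higher. Of the 36 members with at least 10 fragments, 27 did not overlap between the groups and were higher with anti-PD-1, against 14.2% of all such genes. Radiofrequency with anti-PD-1 also gave 0, with 0.0477% of all genes called and 16 members at an unadjusted p under 0.05, and 0 by limma-voom. Des (1.72, limma adjusted p = 0.0572), Atp2a1 (1.52, adjusted p = 0.0684) and Actn2 (0.89, adjusted p = 0.106) came nearest, and the median difference was 1.39 over the 19 members against 0.01 over all genes. Without radiofrequency replicate 2, limma called Acta1 and Des there. The radiofrequency groups did not overlap for 27 of 36 members, all higher with anti-PD-1, against 7.76% of such genes. Cryo-thermal therapy with anti-PD-1 gave 0 of 19 by limma and 0 by limma-voom, with 0.373% of all genes called and 3 members at an unadjusted p under 0.05: Des (0.84, limma adjusted p = 0.242), Ckm (-1.02, adjusted p = 0.343) and Tnni1 (0.29, adjusted p = 0.347). The median over the 19 members was -0.11 there, and 0.20 over the 18 tested without cryo-thermal replicate 2. In that pair 3 of 36 members lay wholly higher with anti-PD-1 (Des, Tnni1 and Ryr1), against 9.89% of such genes, and 3 wholly lower (Myh4, Myoz1 and Eno3), against 8.68%.

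**Figure D3:**
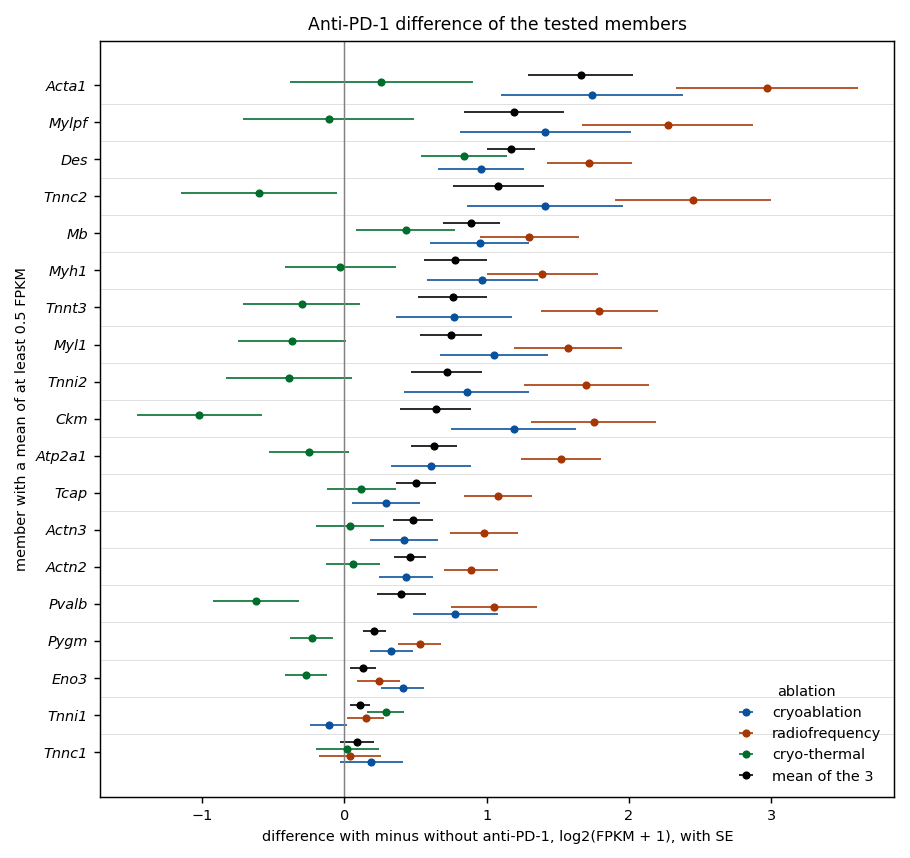
Difference with minus without anti-PD-1 in log2(FPKM + 1) for the 19 members with a mean of at least 0.5 FPKM, with standard errors, after each ablation and as the mean of the 3. The mean difference is above 0 for all 19; the radiofrequency values are the farthest to the right for most members, and Ckm after cryo-thermal therapy is the farthest to the left.

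The 3 anti-PD-1 differences were compared in the same fit. Cryo-thermal minus cryoablation gave 0 of 19 members (0.167% of all genes called, 8 members at an unadjusted p under 0.05, 0 by limma-voom). Cryo-thermal minus radiofrequency gave 0 of 19 (0.00% of all genes called, 15 members at an unadjusted p under 0.05, 0 by limma-voom), with a member median of -1.42 against -0.00 over all genes. Radiofrequency minus cryoablation gave 0 of 19 (0.00% of all genes called, 2 members at an unadjusted p under 0.05, 0 by limma-voom). The nearest members in the widest of these contrasts were Atp2a1 (-1.77, limma adjusted p = 0.221), Ckm (-2.77, adjusted p = 0.222) and Pvalb (-1.68, adjusted p = 0.323). That the antibody difference depends on the ablation was therefore not shown for any member.

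Ablations without antibody were compared next. Eno3 was the only member to pass in cryo-thermal against cryoablation (15.0% of all genes called), higher by 0.74 (SE 0.15, limma adjusted p = 0.00831), at a mean of 18.8 ± 2.00 FPKM against 10.9 ± 1.77 FPKM (SD, n = 3). It passed in each fit that left out 1 tumour of these groups, and Pygm also passed without cryo-thermal replicate 3. Cryo-thermal against radiofrequency called 0 of 19 members (0.00794% of all genes called, 5 members at an unadjusted p under 0.05, 0 by limma-voom); the nearest were Eno3 (0.46, adjusted p = 0.262), Ckm (1.30, adjusted p = 0.266) and Acta1 (1.62, adjusted p = 0.312). Radiofrequency against cryoablation called 0 of 19 (0.00794% of all genes called, 0 members at an unadjusted p under 0.05, 0 by limma-voom), with Atp2a1 (-0.52, adjusted p = 0.383), Acta1 (-1.17, adjusted p = 0.398) and Tcap (-0.44, adjusted p = 0.406) nearest.

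With the antibody given to both sides, 7 of 38 members had the higher mean in cryo-thermal tumours against cryoablation and 0 of 38 against radiofrequency. Against cryoablation plus anti-PD-1, 0 of 19 members passed in limma (4.06% of all genes called, 7 members at an unadjusted p under 0.05), and Pvalb (-1.09, adjusted p = 0.0525), Ckm (-1.51, adjusted p = 0.0667) and Tnnc2 (-1.55, adjusted p = 0.124) were nearest. Of 36 members, 18 lay wholly lower in the cryo-thermal combination, against 9.83% of such genes. Against radiofrequency plus anti-PD-1, 0 of 19 passed (1.31% of all genes called, 12 members at an unadjusted p under 0.05), with Atp2a1 (-1.14, adjusted p = 0.0569), Pvalb (-1.06, adjusted p = 0.0886) and Ckm (-1.47, adjusted p = 0.103) nearest, and 15 of 36 lay wholly lower, against 10.3%. Without cryo-thermal plus anti-PD-1 replicate 1, limma called Ckm against cryoablation and Atp2a1 against radiofrequency. Radiofrequency against cryoablation, both with anti-PD-1, called 0 of 19 (0.00% of all genes called, 0 members at an unadjusted p under 0.05, 0 by limma-voom), with Pygm (0.26), Actn3 (0.36) and Tcap (0.35) nearest, at adjusted p-values from 0.862 to 0.868. The comparisons of this paragraph and the antibody comparisons share tumours, so their values are not independent.

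Myosin heavy chain isoforms were read next; Myh4 was chosen after its values were seen. Myh4 encodes heavy chain IIb of the fastest fibres, Myh1 IIx and Myh2 IIa, and as neighbouring near-copies they may exchange reads. Myh4 had 12, 3 and 1 fragments in the cryo-thermal plus anti-PD-1 tumours, against 52, 279 and 107 in cryo-thermal tumours, 44, 53 and 138 in cryoablation tumours and 196, 100 and 96 with its antibody. Radiofrequency tumours had 2, 32 and 3 fragments, and 244, 178 and 183 with the antibody. The cryo-thermal combination thus had few Myh4 fragments in all 3 tumours, as had radiofrequency alone in 2 of 3. In the added limma-voom fit Myh4 was lower in the cryo-thermal combination than in cryoablation plus anti-PD-1 (log2 -4.93, SE 1.24, adjusted p = 0.0415; 3.37% of all genes called) and in radiofrequency plus anti-PD-1 (log2 -5.61, SE 1.22, adjusted p = 0.0418; 0.940% called). Leaving out 1 tumour kept these calls in 8 and 7 of 18 fits, with adjusted p-values from 0.0257 to 0.16 and from 0.0247 to 0.176, and without the 3 tumours highest in hair follicle markers neither call held (adjusted p = 0.179 and 0.0807). Of the summed FPKM of Myh1, Myh2 and Myh4, Myh4 made up 2.3, 1.8 and 0.6% in the cryo-thermal combination, 32.6, 28.5 and 56.0% in cryo-thermal tumours and 3.1, 7.4 and 7.1% in radiofrequency tumours. Other groups ran from 12.0 to 36.6%. Ckm set against Acta1 (a ratio of FPKM) was 0.086, 0.0716 and 0.0414 in the cryo-thermal combination. It was 0.143 to 0.304 in the other tumours except radiofrequency replicate 1, where Ckm was listed at 0. Ratios of other members went the other way: on group sums, Des (0.455) and Mb (0.116) per Acta1 were highest in the cryo-thermal combination. By tumour they were not: radiofrequency replicates 1 and 3, with few fragments, held 1.08 and 1.13 for Des and 0.145 and 0.136 for Mb. Tumours of the cryo-thermal combination held 0.423, 0.49 and 0.496 for Des and 0.127, 0.111 and 0.0936 for Mb. On group sums, the lowest ratio to Acta1 fell in the cryo-thermal combination for 13 members and in the cryoablation combination for 15.

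**Figure D4:**
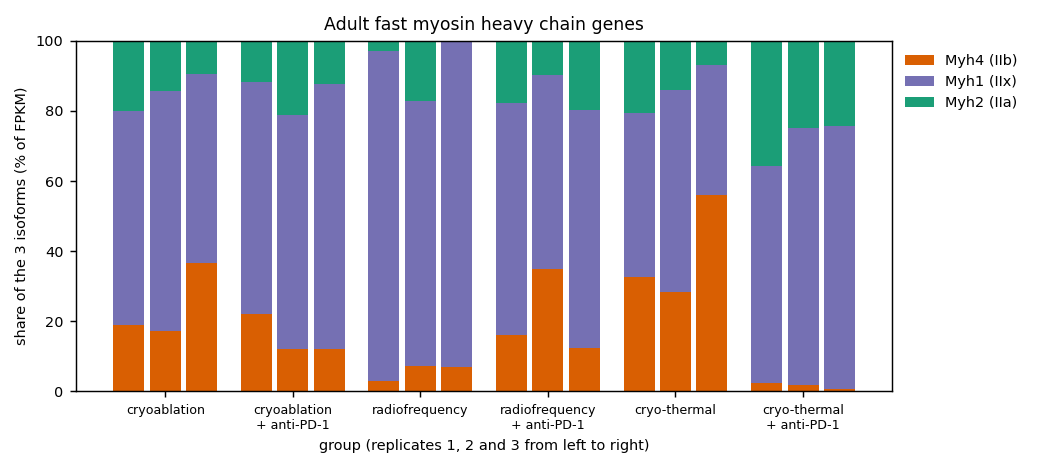
Share of the summed FPKM of Myh1, Myh2 and Myh4 in each tumour. Myh4 makes up 0.6 to 2.3% in the cryo-thermal plus anti-PD-1 tumours and 3.1 to 7.4% after radiofrequency alone, and 12.0% or more in the other 4 groups; the radiofrequency replicates 1 and 3 rest on few fragments.

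Other muscle genes were read from lists that do not overlap the 38. Myog, Pax7, Myf5, Myh3, Myh6 and Nppa were chosen after their values were seen. Among 23 further sarcomere and Z disc genes, limma-voom called 7 of 17 tested higher and 1 lower for the mean antibody difference, with 8.13% of all genes called. Limma tested 3 of them and called 0 higher and 1 lower, with 10.0% of all genes called. In limma-voom Myom2, an M band protein, rose (3.07, adjusted p = 0.00394), as did Mybph (2.85, adjusted p = 0.00701), Xirp1 (2.49, adjusted p = 0.0102) and Nrap (1.13, adjusted p = 0.0215). Fbxo32, a ubiquitin ligase raised in muscle wasting, fell (-0.34, limma-voom adjusted p = 0.0425). The tropomyosins Tpm1 and Tpm2, also made outside muscle, led the list at means of 113 and 36.3 FPKM, and neither passed (limma 0.18 and -0.02, adjusted p = 0.132 and 0.766). Tmod4, which caps thin filaments, passed in limma-voom for cryo-thermal against cryoablation (1.83, adjusted p = 0.0286), as did Asb2 (2.38, adjusted p = 0.032).

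Genes of slow fibres and of the regulation of muscle were read the same way. Of 10 genes of slow fibres shared with heart, limma called 2 of 3 tested higher and limma-voom 2 of 6 for the mean difference. Of all genes, limma called 5.28% and limma-voom 4.37% higher for that difference. Csrp3, a Z disc protein, rose for the mean difference (limma 1.01, adjusted p = 0.0106) and in cryoablation (1.51, adjusted p = 0.0325). Tpm3, a tropomyosin also made outside muscle and the most abundant gene of that list at 78.9 FPKM, rose by 0.17 (limma adjusted p = 0.0205), and Ankrd1, next at 67.7 FPKM, did not pass (0.17, limma adjusted p = 0.0861). Myog, the factor that drives late muscle differentiation, was listed at 0 in all 3 cryo-thermal tumours and at 0.421, 0.325 and 0.197 FPKM with anti-PD-1, and it reached 0.857 FPKM after radiofrequency plus anti-PD-1. Myog passed for the mean difference in limma-voom (adjusted p = 0.00712), where its fitted fold depends on the prior count because 1 group is at 0, and not without the 3 tumours highest in hair follicle markers (adjusted p = 0.0727). It was the only call among 5 tested of 13 myogenic regulator and satellite cell genes, with 8.13% of all genes called. Satellite cell genes were near absent, with 1 Pax7 and 2 Myf5 fragments over all 18 tumours. Embryonic Myh3 and neonatal Myh8 were highest in radiofrequency plus anti-PD-1 replicates 3 (0.619 and 0.78 FPKM) and 1 (0.247 and 0.27 FPKM), and Myh8 rose for the mean difference (limma-voom 3.14, adjusted p = 0.03). Myl4 and Actc1 led that list at 0.19 and 0.104 FPKM.

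Of the 19 triad and sarcolemma genes, limma-voom called 0 of 9 tested for the mean difference (2 at an unadjusted p under 0.05; 0 of 5 by limma). Chrnb1, an acetylcholine receptor subunit, and Srl, sarcalumenin, led them at 9.09 and 1.12 FPKM, and Srl was lower in cryo-thermal than in cryoablation tumours (limma -0.30, adjusted p = 0.0288). Of 16 other energy genes limma-voom called 1 of 11 for the mean difference, close to the 8.13% of all genes called. It was Cox6a2 (0.80, limma-voom adjusted p = 0.0263), a subunit of cytochrome oxidase in striated muscle. Cox6a2 also passed in limma for anti-PD-1 in cryoablation (1.19, adjusted p = 0.0201), for cryo-thermal against cryoablation (0.95, adjusted p = 0.0167) and, lower, for the cryo-thermal against the radiofrequency combination (-1.14, adjusted p = 0.0386). Ak1, an adenylate kinase, was lower in cryo-thermal than in cryoablation tumours (limma -0.47, adjusted p = 0.0196), and the glycolytic Pfkm and the glycogen synthase Gys1 led the list at 18.8 and 15.1 FPKM.

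Markers of other tissues were read in the same tumours, besides the hair follicle markers, which Krt14 and Lgals7 led at means of 85.4 and 32.7 FPKM. Heart genes Myh6 and Nppa were near 0 (41 and 3 fragments in all), while Tnnt2 and Nppb averaged 177 and 16.3 FPKM. Limma called 1 of 4 heart genes tested for the mean difference (10.0% of all genes called), Actn2, which is also 1 of the 38. Tnnt2 was lower in cryo-thermal than in cryoablation tumours (-0.47, limma adjusted p = 0.0307). Desmin is made in smooth muscle as well as in striated muscle. Summed smooth muscle markers were 42.9 to 65 FPKM after cryoablation and 68.7 to 89 FPKM with anti-PD-1, 44.8 to 77 and 69.1 to 88.6 FPKM in the radiofrequency pair, and 50.4 to 125 and 62.9 to 105 FPKM in the cryo-thermal pair. For the mean difference 9 of 10 were above 0 in limma-voom, with a median of 0.69. Synpo2 was the 1 of 10 called (0.88, limma-voom adjusted p = 0.0369), with 8.13% of all genes called. Limma called 0 of 6 (2 at an unadjusted p under 0.05), and Smtn and Tagln led the list at 27.9 and 15.7 FPKM.

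Summed tendon markers were 14.5 to 17 FPKM after cryoablation and 23.2 to 24.5 FPKM with anti-PD-1, 12.2 to 13.7 and 25.3 to 37.2 FPKM in the radiofrequency pair, and 12.7 to 24.6 and 23.3 to 44.8 FPKM in the cryo-thermal pair. Limma called 1 of 4 tested for the mean difference and 2 of 4 were above 0, and limma-voom called 1 of 6 with 3 of 6 above 0. Of all genes, limma called 10.0% and limma-voom 8.13% for that difference. The gene called was Thbs4 (limma 1.53, SE 0.19, adjusted p = 0.00222), which averaged 12.5 FPKM, ahead of Mkx at 4.32 FPKM. Thbs4 also passed in cryoablation (1.24, limma adjusted p = 0.0451) and in radiofrequency (2.13, adjusted p = 0.037), and Scx was lower in cryo-thermal than in cryoablation tumours (-0.39, adjusted p = 0.0422).

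Summed erythroid markers were 559 to 773 FPKM after cryoablation and 53 to 104 FPKM with anti-PD-1, 36.8 to 994 and 45.9 to 95.2 FPKM in the radiofrequency pair, and 23.6 to 211 and 81.1 to 317 FPKM in the cryo-thermal pair. The cryoablation pair was thus wholly apart and the other pairs overlapped. For the mean difference limma called 0 of 5 (4 at an unadjusted p under 0.05, median -1.25) and limma-voom 0 of 6. In cryoablation Hbb-bt (-3.74, limma adjusted p = 0.032), Alas2 (-2.49, adjusted p = 0.0338) and Hba-a2 (-3.46, adjusted p = 0.0474) fell with anti-PD-1. Without the antibody, Hbb-bt (-3.62, limma adjusted p = 0.0152), Hbb-bs (-3.75, adjusted p = 0.0178), Alas2 (-2.38, adjusted p = 0.0178) and Hba-a2 (-3.32, adjusted p = 0.0273) were lower in cryo-thermal than in cryoablation tumours. Hbb-bs and Hba-a1 led the list at 134 and 76.1 FPKM.

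Among 8 carcinoma epithelium markers, limma called 1 of 4 tested for the mean difference, with 10.0% of all genes called. This was Cdh1, the adhesion protein E-cadherin, which rose by 0.48 (limma adjusted p = 0.00293). Cdh1 led that list at 3.36 FPKM, ahead of Cldn4 at 0.545 FPKM. Cdh1 also rose with anti-PD-1 in cryo-thermal therapy (0.95, limma adjusted p = 0.00136). It was higher in the cryo-thermal than in the cryoablation combination (0.48, limma adjusted p = 0.0277) and lower in cryo-thermal than in cryoablation tumours (-0.38, adjusted p = 0.0292). Adipocyte markers, led by Fabp4 and Cfd at 25.2 and 6.17 FPKM, gave 0 of 9 by limma-voom (0 at an unadjusted p under 0.05; 0 of 5 by limma). Schwann cell markers gave 0 of 6 by limma-voom (0 at an unadjusted p under 0.05; 0 of 4 by limma). Melanocyte markers, led by Mitf and Pmel at 0.919 and 0.0777 FPKM, gave 0 of 1 by limma-voom (1 at an unadjusted p under 0.05; 0 of 1 by limma). Brown fat markers, led by Elovl3 and Cidea at 0.268 and 0.214 FPKM, gave 0 of 1 by limma-voom (0 at an unadjusted p under 0.05), and limma tested none. The part these tissues play in the muscle values was not tested.

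**Figure D5:**
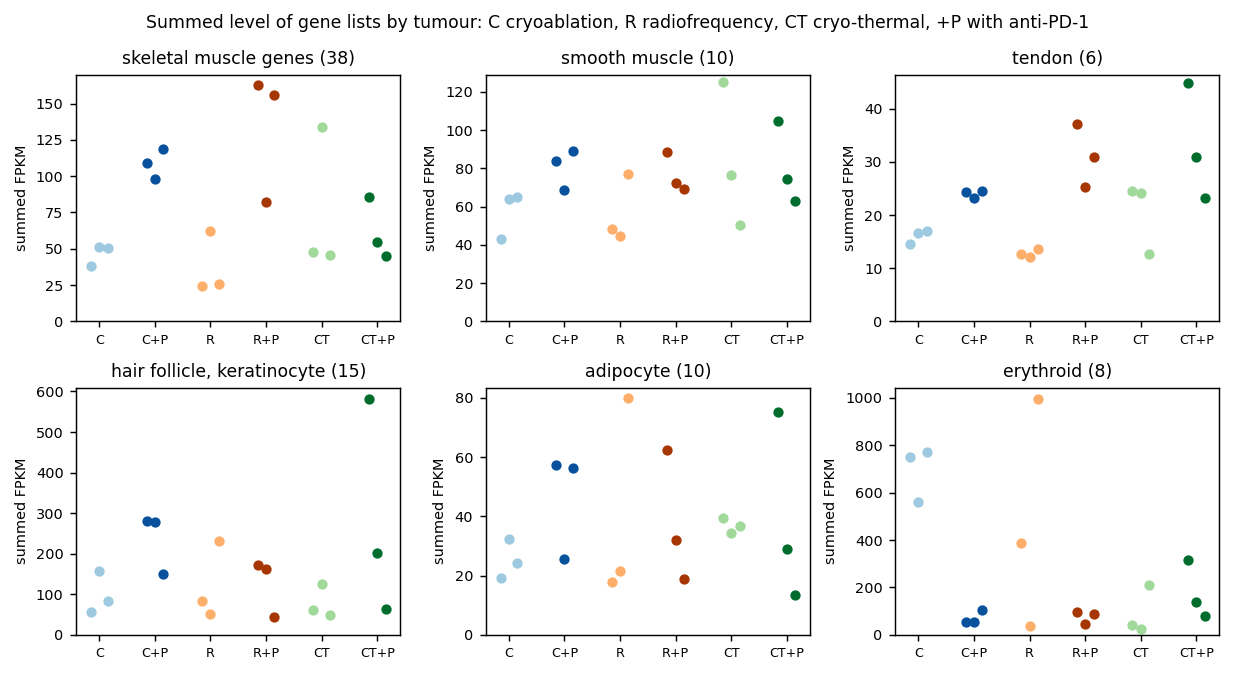
Summed FPKM of the 38 members and of 5 lists of markers of other tissues in each of the 18 tumours. The muscle sum is 82.2 to 163 FPKM in the cryoablation and radiofrequency combinations; the hair follicle and keratinocyte sum is highest at 582 FPKM in cryo-thermal plus anti-PD-1 replicate 1.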

How the data were processed

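RNA-seq was made from tumour pieces in 18 samples, 3 per group. The authors deposited FPKM per gene; per the submitters' processing notes HTSeq 0.11.2 was used, and the aligner, the genome build and the annotation are not given in the sources used here. All groups were fitted together with limma 3.58.1 (R 4.3.3) on log2(FPKM + 1) for genes with a mean of at least 0.5 FPKM, with trend, 2-sided, adjusted by Benjamini-Hochberg, threshold 0.05. These fold changes are on the log2(FPKM + 1) scale and understate the change of low genes. Whole reads were recovered from the FPKM steps for 99.90% of the 26538 genes (within 0.02 fragments), and limma-voom was run on those with a mean of at least 10 fragments. Fits and recovery were tested on simulated data. The members and lists were chosen with earlier results of these data known. Values are named for the 6 members with the highest mean FPKM, the highest of each role, members past the threshold (up to 12 per comparison) or the 3 with the smallest p; from each other list, genes past the threshold, up to 4 by p, and the 2 with the highest mean FPKM. Some genes this rule gives from the other lists are not reported here. Fragments are not molecules, since no molecular identifiers are known, and their counts may vary by more than counting error.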

Additional observations from a re-analysis of the deposited data

Results flagged for a closer look

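The anti-PD-1 difference of Cdh1, E-cadherin, differed between ablations in a test of the difference itself. It was larger after cryo-thermal therapy than after cryoablation by 0.86 on the log2(FPKM + 1) scale (SE 0.15, limma adjusted p = 0.0379) and by 1.13 in limma-voom (adjusted p = 0.047). Cryo-thermal tumours held 1.75, 2.22 and 2.29 FPKM of Cdh1 alone and 4.61, 5.07 and 5.19 FPKM with anti-PD-1, and cryoablation tumours 2.95, 2.67 and 3.42 FPKM alone and 3.13, 3.49 and 3.17 FPKM with anti-PD-1. The number of genes called in this contrast was 21, and it ran from 0 to 191 without 1 tumour.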

How the results depend on the processing

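The values of the text hold for all 18 tumours, a pseudocount of 1 and a minimum of 0.5 FPKM. A pseudocount of 0.1, no minimum, a minimum of 2 FPKM, upper quartile scaling, a replicate block, leaving out 3 tumours rich in hair follicle RNA, fitting only the groups compared, and leaving out each tumour were tried; limma-voom, with and without tumours left out, was chosen after seeing the data. Those 3 tumours all had anti-PD-1, and without them the cryoablation combination kept 1 tumour, so calls lost there cannot be told apart from a loss of tumours. Of 768 values of named members recomputed, 655 kept direction and side of the threshold, 106 no longer passed, 7 newly passed and 0 changed direction. A call could be lost only by members that passed with all tumours. These were 11 for the mean anti-PD-1 difference and Eno3 for cryo-thermal against cryoablation. The other named members did not pass to begin with, so the share of 768 understates how often calls were lost. Of 42 recomputed mean levels of the members per group, 12 moved by more than 1 SD. The 42 include a pseudocount of 0.1 and a minimum of 2 FPKM, which change the scale or the members averaged. A shift is built in there, so the count does not measure how stable these levels are. For the mean anti-PD-1 difference, the members tested were all above 0 in 26 of 26 settings, a count without the limma-voom fits that left out tumours. In limma-voom without the 3 tumours, 35 of 36 members were above 0, with a median of 1.38.

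Members past the threshold for the mean anti-PD-1 difference numbered 11 in the text, 7 with the replicate block, 7 with no minimum, 5 at a minimum of 2 FPKM, 17 by limma-voom and 1 without the 3 tumours. Members past it in cryoablation numbered 11 when only its groups were fitted. In cryo-thermal against cryoablation, both with anti-PD-1, 1 member passed at the pseudocount of 0.1 (Pvalb) and 1 by limma-voom (Myh4), and against radiofrequency 1 by limma-voom (Myh4).

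Genes past the threshold moved more. Cryo-thermal against cryoablation had 1884, and 1037 with only the groups compared, 458 to 2677 without 1 tumour. Cryo-thermal against radiofrequency had 1, and 0 with the replicate block, 0 without the 3 tumours, 0 with only the groups compared, 0 by limma-voom, 0 to 280 without 1 tumour. Radiofrequency against cryoablation had 1, and 3 with no minimum, 7 without the 3 tumours, 1 to 20 without 1 tumour. The cryo-thermal against the cryoablation combination had 511, and 180 with no minimum, 330 without the 3 tumours, 0 with only the groups compared, 2 to 1051 without 1 tumour. The cryo-thermal against the radiofrequency combination had 165, and 88 at a pseudocount of 0.1, 74 with no minimum, 69 with the replicate block, 71 with only the groups compared, 0 to 120 without 1 tumour. The radiofrequency against the cryoablation combination had 0, and 1 with no minimum. Anti-PD-1 in cryoablation had 543, and 140 with no minimum, 0 without the 3 tumours, 0 to 452 without 1 tumour. Anti-PD-1 in radiofrequency had 6, and 10 with no minimum, 0 with the replicate block, 0 without the 3 tumours, 1 with only the groups compared, 0 by limma-voom, 0 to 3 without 1 tumour. Anti-PD-1 in cryo-thermal therapy had 47, and 31 at a minimum of 2 FPKM, 5 without the 3 tumours, 1 with only the groups compared, 2 to 80 without 1 tumour. The mean anti-PD-1 difference had 1262, and 752 with no minimum, 206 without the 3 tumours, 674 to 1685 without 1 tumour. Its cryo-thermal minus cryoablation contrast had 21, and 9 with the replicate block, 1 without the 3 tumours, 0 to 191 without 1 tumour. Its cryo-thermal minus radiofrequency contrast had 0, and 2 with no minimum, 1 without the 3 tumours, 1 with only the groups compared, 0 to 4 without 1 tumour. Its radiofrequency minus cryoablation contrast had 0, and 2 with no minimum, 0 to 1 without 1 tumour.
Members past the threshold in limma without 1 tumour numbered 1 to 2 for cryo-thermal against cryoablation, 0 to 1 for the cryo-thermal against the cryoablation combination, 0 to 1 for the cryo-thermal against the radiofrequency combination, 0 to 2 for anti-PD-1 in radiofrequency, 3 to 14 for the mean anti-PD-1 difference.

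Replicate numbers did not pair the tumours: deviations from the group means of same-numbered tumours correlated at -0.47 to 0.59 (median -0.00), and 13 of 45 pairs were over 0.1. The cause of these changes was not tested. Low levels limit the members: 19 of 38 lay below 0.5 FPKM, where log2(FPKM + 1) compresses differences.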
